A study of Mus musculus with 93 samples.

Results

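The collagen chains are the genes whose symbol in both expression tables reads Col, a type number, a and a chain number. The rule uses names only and no measured value. It found 44 symbols, of which 42 had a value in every cell among 21285 genes in all, and Col6a6 and Col18a1 had none. By structure, 11 of the 42 code for fibrillar collagens, 6 for type IV, 5 for type VI and 20 for other collagens.

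The cells came from lungs of adult C57BL/6 mice carrying Tbx4cre and the reporter RosaTm, in which cells descended from those that expressed Tbx4, a transcription factor of the embryonic lung mesenchyme, keep a fluorescent mark. Of 93 single-cell libraries, 54 were Tbx4 lineage+ and 39 were Tbx4 lineage-, and the series describes both as mesenchymal. The labels give the same genotype, strain and age for both groups. Each library is 1 cell captured on a Fluidigm C1 chip, and the labels name no animal, so each group counts as 1 sample and no difference between the groups has a test or a p-value.

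Collagens are the main structural proteins of the extracellular matrix, and each molecule is a helix wound from several alpha chains that may come from different genes. Fibrillar collagens, with types I and III as the bulk in lung, form the rope-like fibres that bear load; type IV forms the sheet of basement membranes; type VI forms beaded filaments near the cell surface. In the lung, fibroblasts are known as the main source of fibrillar collagen, while the basement membrane under the gas exchange surface holds a type IV network of Col4a3, Col4a4 and Col4a5 next to the common network of Col4a1 and Col4a2.

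A cell was kept when 1000 genes or more reached 1 FPKM. FPKM, fragments scaled to transcript length and library size, is a level per length, meant to let chains be set beside each other. The unit is inferred from the values. After averaging 2 pairs of lineage+ libraries with nearly the same profile, 50 lineage+ and 34 lineage- cells remained, with a median of 2412.5 genes detected in lineage+ cells and 1812 in lineage- cells. Markers went against a purely mesenchymal make-up of the lineage- cells. Of 10 alveolar type 2 markers with values, 5 reached 1 FPKM in some lineage+ cell and all 10 in some lineage- cell, and of 11 immune markers 4 did so in lineage+ and 10 in lineage- cells. The summed type 2 markers ranged over 0 to 195 FPKM in lineage+ cells and over 0.197 to 521753 FPKM in lineage- cells, and the summed immune markers over 0 to 318 FPKM in lineage+ cells and over 0.00739 to 68584 FPKM in lineage- cells. Sftpa1, Sftpd, Lamp3, Napsa and Lyz1 of the type 2 list and Cd74, Cd52, Laptm5, Lyz2, Plek, H2-Aa and Marco of the immune list did not reach 1 FPKM in any lineage+ cell. Marco did not reach it in any lineage- cell either. The part of these other cell types in the collagen differences was not tested. Lineage- cell 23 has the word debris in its library name and was kept; without it 15 chains stood 2-fold or more higher in lineage+ cells and 3 as far lower, as with it. The labels write the sort gate as epcam+, and every lineage+ library name begins differently from every lineage- library name, so whatever those names stand for cannot be told apart from the lineage.

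The genomic stretches in front of a few chains are shown because these chains carry the results below. Col1a2, Col3a1 and Col6a2 were detected in more lineage+ cells than any other chain, and Col4a3 and Col4a4, which lie head to head on chromosome 1 with 71 bases between their starts in the deposited tables, were often found in the same lineage- cells. The sequences are from RefSeq, build GRCm38.p6, 5′ to 3′ on the strand of the gene (for the last, on the strand of Col4a3), and stretches covered by an annotated exon were left out. Of the 42 chains, 33 have a window in that RefSeq table. Capitals mark the TATA box with the letters TATAAA, the CCAAT box spelled as its name, or the GC box with the letters GGGCGG. Each was searched on both strands, and none overlaps another here.
Col1a2, chr6:4505370-4505492, + strand: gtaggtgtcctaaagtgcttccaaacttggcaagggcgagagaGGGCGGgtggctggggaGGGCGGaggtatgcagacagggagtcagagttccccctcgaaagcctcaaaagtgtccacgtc
Col3a1, chr1:45311288-45311537, + strand: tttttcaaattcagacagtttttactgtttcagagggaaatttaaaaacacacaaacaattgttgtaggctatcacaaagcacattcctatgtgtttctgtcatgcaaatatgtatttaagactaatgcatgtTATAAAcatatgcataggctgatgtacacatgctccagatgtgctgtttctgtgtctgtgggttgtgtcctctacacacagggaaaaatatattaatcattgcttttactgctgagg
Col6a2, chr10:76623631-76623880, - strand: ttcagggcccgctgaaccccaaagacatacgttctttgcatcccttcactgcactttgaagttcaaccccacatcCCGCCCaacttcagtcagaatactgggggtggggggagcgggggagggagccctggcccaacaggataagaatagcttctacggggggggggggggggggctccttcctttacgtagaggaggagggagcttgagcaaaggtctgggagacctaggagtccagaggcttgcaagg
Col4a4 to Col4a3, chr1:82586850-82586920, + strand: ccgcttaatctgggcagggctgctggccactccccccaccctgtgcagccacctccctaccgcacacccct
The stretch of Col1a2 holds 2 GC boxes, a motif that 13.3% of 32851 RefSeq windows hold at the same place, 248 to 126 bases before the start. The 250 bases of Col3a1 hold 1 match to the TATA box letters, which begins 117 bases before the start. Such a match is found in 12.4% of all windows of that length. Whether it works as a TATA box was not tested. Col6a2 holds 1 GC box on the other strand, found in 32.7% of windows of 250 bases. The 71 bases between Col4a4 and Col4a3 hold none of these motifs, which the last 71 bases before the start hold in 4.41% (TATA box), 13.3% (CCAAT box) and 20.7% (GC box) of windows.

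By their medians, lineage+ cells held more collagen chains and a larger share of collagen in their summed FPKM. The number of chains at 1 FPKM or more ranged over 3 to 15 with a median of 10 in lineage+ cells and over 0 to 13 with a median of 3.5 in lineage- cells. Every lineage+ cell had at least 3 chains, and 7 of 34 lineage- cells had none. The chains together made up a median of 0.205% of a lineage+ cell's summed FPKM, over a range of 0.0433 to 0.937%. In lineage- cells the median was 0.0327% and the highest 0.591%, so the ranges overlap. The highest collagen sum of all cells was in lineage- cell 31, at 2082 FPKM, against 1777 FPKM in lineage+ cell 14. The number of chains went with the number of genes detected, with a Pearson r of 0.71 over 50 lineage+ cells and 0.38 over 34 lineage- cells, and the part of that depth in the difference was not tested.

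Of the 42 chains, 28 were detected in some cell, and 20 in 10% or more of one group's cells. Of these 20, 15 stood 2-fold or more higher in lineage+ cells, where 29.7% of 7588 genes detected as widely were. Another 3, all of type IV, were at least 2-fold lower, where 23.4% of those genes were. The ratio is of the group means with 1 FPKM added to each, which understates the difference of low chains. Its median over the 20 chains was 1.72 on the log2 scale, beside 0.15 over the 7588 genes. All 6 fibrillar, all 3 type VI and all 5 other chains counted were on the higher side, and type IV was split. The 10% could be reached in either group, and Col6a3, Col13a1, Col15a1, Col16a1, Col23a1 and Col27a1 reached it in lineage+ cells only. For these chains the filter itself favoured the higher side, so that side is no separate result. Among cells with at least 2000 genes (35 lineage+ and 12 lineage-) 9 chains were at least 2-fold higher, none was 2-fold lower and the median was 0.99. Of those 12 lineage- cells, 6 held Col1a1, Col1a2 and Col3a1 together.

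**Figure D1:**
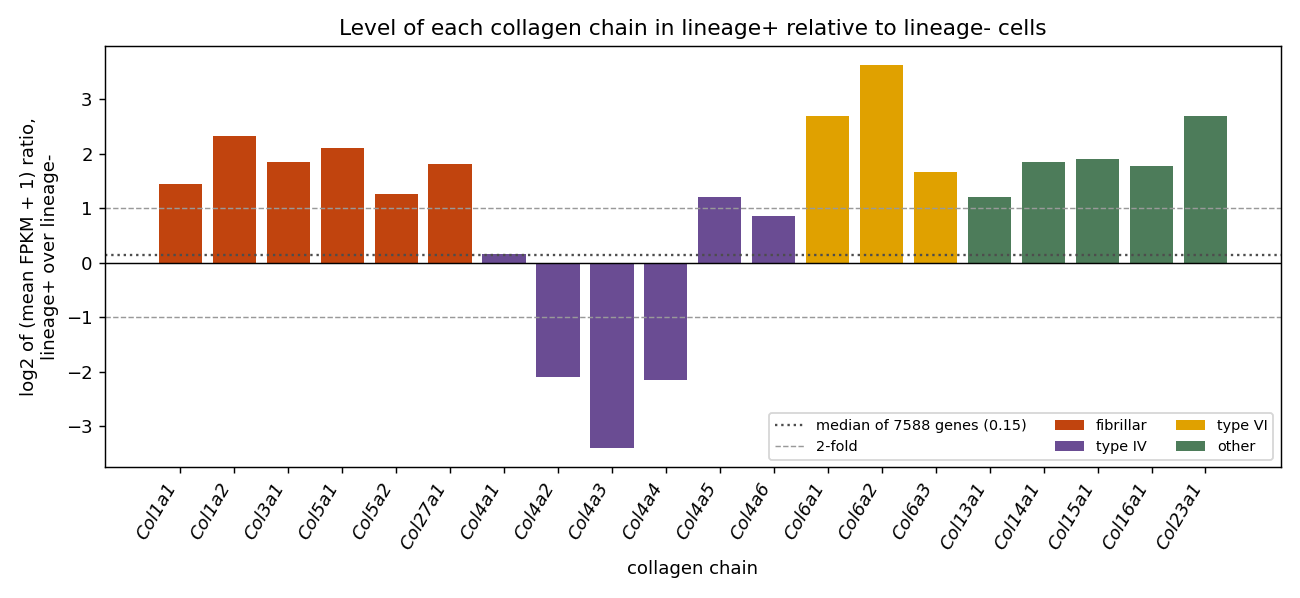
Log2 ratio of mean FPKM plus 1, lineage+ (50 cells) over lineage- (34 cells), for the 20 collagen chains found in 10% or more of the cells of a group, coloured by structural group. Dashed lines mark 2-fold, and the dotted line is the median of 7588 genes, 0.15. Bars of Col4a2, Col4a3 and Col4a4 point down and all fibrillar and type VI bars point up past 2-fold.

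Type I collagen, the most abundant fibrillar collagen, is built from Col1a1 and Col1a2. Col1a1 (chr11:94936270-94951856) ranged over 0 to 322 FPKM with a median of 28.9 in lineage+ cells and over 0 to 217 FPKM with a median of 0 in lineage- cells. Col1a2 (chr6:4505697-4541543) ranged over 0.151 to 447 FPKM with a median of 138 in lineage+ cells and over 0 to 267 FPKM with a median of 0 in lineage- cells. The ranges of the groups overlap for both chains, but the typical lineage- cell had none of either. Col1a1 was detected in 41 of 50 lineage+ cells (82%, exact Clopper-Pearson 95% interval 68.6 to 91.4%), against 8 of 34 lineage- cells (23.5%, 10.7 to 41.2%). For Col1a2 the counts were 49 of 50 lineage+ cells (98%, 89.4 to 99.9%) and again 8 of 34 lineage- cells. Such intervals cover counting error only. Col1a1 averaged 53.7 ± 67.2 FPKM over 50 lineage+ cells, against 19.1 ± 48.6 FPKM over 34 lineage- cells (SD over cells), a log2 ratio of 1.44. Col1a2 averaged 154 ± 115 FPKM in lineage+ cells, against 30.1 ± 74.0 FPKM in lineage- cells, and its log2 ratio was 2.32.

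Col3a1 (chr1:45311538-45349706), the chain of type III collagen, which forms thin fibres with type I, followed Col1a2. It ranged over 0 to 457 FPKM with a median of 134 in lineage+ cells and over 0 to 341 FPKM with a median of 0 in lineage- cells. It reached 1 FPKM in 47 of 50 lineage+ cells, against 8 of 34 lineage- cells. The log2 ratio was 1.86, from a mean of 144 ± 115 FPKM in lineage+ cells, against 39.1 ± 87.2 FPKM in lineage- cells (SD over cells). Of 46 lineage+ cells with both Col1a2 and Col3a1, 26 had more Col1a2. The ratio of Col1a2 over Col3a1 had a median of 1.13 and ranged over 0.0429 to 10.4, so that either could be far above the other in a given cell. By the deposited values, Col1a1 was the lesser chain, with Col1a2 above it in 37 of 40 lineage+ cells that held both. The median ratio of Col1a2 over Col1a1 was 3.57. Such comparisons between chains rest on the inferred unit, and whether different chains were measured equally well was not tested. Col1a2 was the highest of all collagen chains in 21 of 50 lineage+ cells, Col3a1 in 11 and Col6a1 in 7. In the lineage- cells Col4a3 led most often, in 10 of 34.

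**Figure D2:**
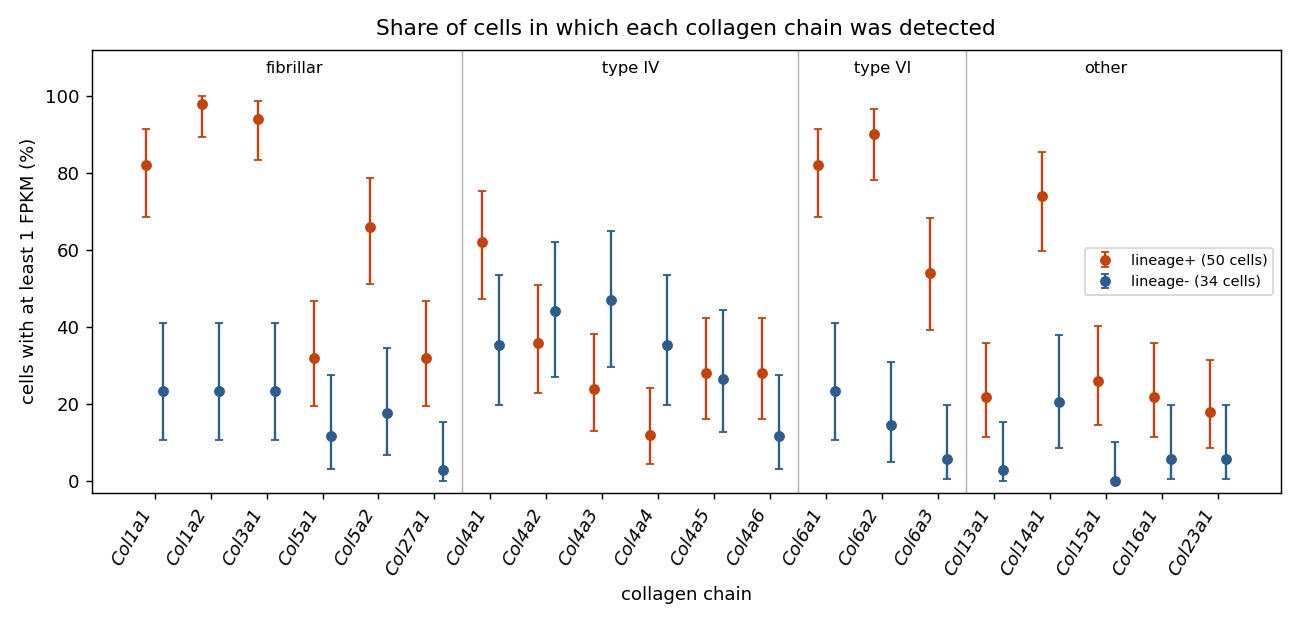
Share of cells with at least 1 FPKM (vertical axis, %) for each of 20 collagen chains, in lineage+ cells (left of each pair, 50 cells) and lineage- cells (34 cells). Points are shares and bars are exact 95% intervals. The intervals of Col1a1, Col1a2, Col3a1, Col5a2, Col6a1, Col6a2, Col6a3, Col14a1, Col15a1 and Col27a1 do not overlap between the groups, and those of all 6 type IV chains do. The share of all genes whose intervals do not overlap is not given here, and lineage+ cells had more genes detected. Whether this is particular to collagen chains can therefore not be read from the figure.

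Type V collagen sits inside type I fibres and starts their assembly. Col5a2 (chr1:45374331-45503282) ranged over 0 to 139 FPKM with a median of 3.88 in lineage+ cells and over 0 to 109 FPKM with a median of 0 in lineage- cells, with detection in 33 of 50 lineage+ cells, against 6 of 34 lineage- cells. Its partner Col5a1 (chr2:27886425-28039510) reached 104 FPKM in lineage+ cells and 17.7 FPKM in lineage- cells, with detection in 16 of 50 lineage+ cells, against 4 of 34 lineage- cells. Both were found in fewer lineage+ cells than either type I chain. The log2 ratios were 1.26 for Col5a2 and 2.10 for Col5a1. A single lineage- cell, number 21, held 52.1% of the lineage- sum of Col5a2, and without it the ratio was 2.09. Col5a3, the least common type V chain, was detected in 1 of 50 lineage+ cells, at 53.8 FPKM, and in 1 of 34 lineage- cells, at 9.48 FPKM.

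Col27a1 (chr4:63215412-63334990), a fibrillar collagen best known from cartilage, was detected in 16 of 50 lineage+ cells and 1 of 34 lineage- cells, reached 38.3 FPKM in lineage+ cells and 5.54 FPKM in lineage- cells, and had a log2 ratio of 1.82. Col24a1 was detected in 1 lineage+ cell (number 6, at 27.8 FPKM) and in 0 of 34 lineage- cells, which allows a share of up to 8.82%. For a count of 0 this limit is 3 over the number of cells, while the exact interval for 0 of 34 ends at 10.3%. Col2a1 and Col11a2, chains of cartilage fibres, stayed under 1 FPKM in every kept cell of both groups (0 of 50, which allows up to 6%), and Col11a1 was listed at 0 in every cell.

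Type VI collagen is assembled from Col6a1, Col6a2 and a longer chain, mostly Col6a3. Col6a1 (chr10:76708792-76726044) ranged over 0 to 571 FPKM with a median of 47.5 in lineage+ cells and over 0 to 136 FPKM with a median of 0 in lineage- cells. Col6a2 (chr10:76595756-76623404) ranged over 0 to 170 FPKM with a median of 22.1 in lineage+ cells and over 0 to 64.8 FPKM with a median of 0 in lineage- cells. The typical lineage+ cell held both, and the typical lineage- cell neither. Col6a1 was detected in 41 of 50 lineage+ cells, against 8 of 34 lineage- cells, and Col6a2 in 45 of 50 lineage+ cells (90%, 78.2 to 96.7%), against 5 of 34 lineage- cells (14.7%, 4.95 to 31.1%). The log2 ratio of Col6a2, 3.63, was the highest of the 20 chains, from a mean of 41.6 ± 44.4 FPKM in lineage+ cells, against 2.45 ± 11.2 FPKM in lineage- cells (SD over cells), and that of Col6a1 was 2.69. Lineage- cell 10 alone held 77.8% of the lineage- Col6a2 sum, and without it the ratio was 4.77.

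Col6a3 (chr1:90766860-90843971) was found in fewer cells than Col6a1 and Col6a2. It ranged over 0 to 73.2 FPKM with a median of 3.21 in lineage+ cells and over 0 to 72.3 FPKM with a median of 0 in lineage- cells. It was found in 27 of 50 lineage+ cells and in only 2 of 34 lineage- cells. Its log2 ratio was 1.66, or 2.61 without lineage- cell 4, which held 63.5% of the lineage- sum. Col6a5, a relative of Col6a3, was listed at 0 in all lineage+ cells and stood at 42.8 FPKM in 1 lineage- cell, number 15, and Col6a4 was listed at 0 everywhere.

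Type IV chains did not share a direction. Col4a1 (chr8:11198423-11312826) ranged over 0 to 97.9 FPKM with a median of 3.85 in lineage+ cells and over 0 to 111 FPKM with a median of 0.144 in lineage- cells. Its means, 14.0 ± 22.8 FPKM in lineage+ cells and 12.5 ± 25.1 FPKM in lineage- cells, gave a log2 ratio of 0.16, or -0.07 among cells with at least 2000 genes. It reached 1 FPKM in 31 of 50 lineage+ cells, against 12 of 34 lineage- cells. Col4a2 (chr8:11312829-11449287), its usual partner, ranged over 0 to 51.1 FPKM with a median of 0.0241 in lineage+ cells and over 0 to 305 FPKM with a median of 0.151 in lineage- cells. Col4a1 and Col4a2, whose starts in the deposited tables have 2 bases between them, therefore had different ratios between the groups, that of Col4a2 being -2.10. Lineage- cell 29 held 46.3% of the lineage- Col4a2 sum, and without it the log2 ratio was -1.31. Among cells with at least 2000 genes it turned to 0.89, with fewer epithelial-like cells in lineage- (3 of 12, against 18 of 34).

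Col4a3 (chr1:82586921-82722059) had the largest difference on the lineage- side. It ranged over 0 to 221 FPKM with a median of 0 in lineage+ cells and over 0 to 1955 FPKM with a median of 0.248 in lineage- cells. Most cells of either group had little or none, and a minority had much. It reached 1 FPKM in 12 of 50 lineage+ cells (24%, 13.1 to 38.2%), against 16 of 34 lineage- cells (47.1%, 29.8 to 64.9%), and the log2 ratio was -3.40, or -0.34 among cells with at least 2000 genes. Its head-to-head neighbour Col4a4 (chr1:82450723-82586849) reached 27.3 FPKM in lineage+ cells and 90.7 FPKM in lineage- cells, was found in 6 of 50 lineage+ cells, against 12 of 34 lineage- cells, and had a log2 ratio of -2.16, or -0.76 among those deeper cells. The deeper cells also differ in make-up, with 3 of 12 lineage- cells epithelial-like, against 18 of 34. The part of this in the ratios was not tested.

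Col4a5 (chrX:141475419-141689235) and Col4a6 (chrX:141165403-141474076) are also a head-to-head pair. Col4a5 was present in 14 of 50 lineage+ cells, up to 120 FPKM, and in 9 of 34 lineage- cells, up to 54.9 FPKM. Col4a6 was likewise present in 14 of 50 lineage+ cells, up to 44.0 FPKM, and in 4 of 34 lineage- cells, up to 27.0 FPKM. The shares of Col4a5 were close, and the ratios leaned on a few cells. The log2 ratio of Col4a5 was 1.21, or 0.86 without lineage+ cell 29 and 1.82 without lineage- cell 21. That of Col4a6 was 0.85, or 1.36 without lineage- cell 8 and 1.23 without lineage- cell 31.

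Among the other collagens, Col14a1 (chr15:55307750-55520803), which sits on the surface of type I fibres, was the one found in most lineage+ cells. It ranged over 0 to 482 FPKM with a median of 17.7 in lineage+ cells and over 0 to 253 FPKM with a median of 0 in lineage- cells, with detection in 37 of 50 lineage+ cells (74%, 59.7 to 85.4%), against 7 of 34 lineage- cells (20.6%, 8.70 to 37.9%). The log2 ratio was 1.86, or 2.89 without lineage- cell 27, which held 56.2% of the lineage- sum. Col15a1 (chr4:47208012-47313165), a basement membrane collagen, was detected in 13 of 50 lineage+ cells, with a median of 5.74 FPKM in those and 51.6 FPKM in the highest, cell 3. It was detected in 0 of 34 lineage- cells, which allows up to 8.82%, and its log2 ratio was 1.89.

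Col13a1, a collagen anchored in the cell membrane, was detected in 11 of 50 lineage+ cells, against 1 of 34 lineage- cells, with a log2 ratio of 1.21 that was 0.83 without lineage+ cell 37. Col16a1, which like Col14a1 associates with fibres, was found in 11 of 50 lineage+ cells, against 2 of 34 lineage- cells, with a log2 ratio of 1.77 that was 0.90 without lineage+ cell 29. Col23a1, another membrane collagen, was found in 9 of 50 lineage+ cells, against 2 of 34 lineage- cells, with a log2 ratio of 2.70. Lineage+ cell 28, at 254 FPKM, held 55.1% of the lineage+ sum of Col23a1, and without it the ratio was 1.73; without lineage- cell 4 it was 3.28.

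Of the remaining chains, Col12a1, another collagen of fibre surfaces, was detected in 0 of 50 lineage+ cells, which allows up to 6%, and in 3 of 34 lineage- cells, among them cell 16 at 138 FPKM. Col8a1, Col8a2, Col17a1 and Col20a1 were detected in at most 2 cells of either group, and none of them exceeded 6.06 FPKM in lineage+ or 2.97 FPKM in lineage- cells. The 12 chains Col6a4, Col7a1, Col9a1, Col9a2, Col9a3, Col10a1, Col11a1, Col19a1, Col22a1, Col25a1, Col26a1 and Col28a1 were listed at 0 in every kept cell.

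Chains that assemble with each other were not always detected in the same cell. Col1a1 and Col1a2 were both present in 40 of 50 lineage+ cells, while 9 held Col1a2 alone, 1 held Col1a1 alone and 0 held neither. In lineage- cells 7 of 34 held both, 1 held each alone and 25 held neither. Type I and III together (Col1a1, Col1a2 and Col3a1) were complete in 40 of 50 lineage+ cells, against 7 of 34 lineage- cells. So the lineage- cells fell into a few with all of these chains and many with none.

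For type VI, Col6a1 and Col6a2 were found together in 37 of 50 lineage+ cells, against 4 of 34 lineage- cells. Col6a3 was the chain most often missing: all of Col6a1, Col6a2 and Col6a3 were found in 20 of 50 lineage+ cells (40%, 26.4 to 54.8%), against 1 of 34 lineage- cells (2.94%, 0.0744 to 15.3%). Of the 27 lineage+ cells with Col6a3, 26 also held Col6a2 and 21 held Col6a1. Among lineage+ cells Col6a2 was found in 90.2% of 41 cells with Col6a1 and in 88.9% of 9 cells without it, and 9 cells fix the second share only loosely. For type V, Col5a1 and Col5a2 were both present in 11 of 50 lineage+ cells, against 2 of 34 lineage- cells, and 22 lineage+ cells had Col5a2 alone.

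The type IV pairs differed in this respect. Col4a1 and Col4a2 were found together in 12 of 50 lineage+ cells, against 9 of 34 lineage- cells, and 19 lineage+ cells held Col4a1 alone against 3 lineage- cells. Col4a4 was seldom seen without Col4a3: of the cells with Col4a4, 5 of 6 in lineage+ and 11 of 12 in lineage- also held Col4a3. All of Col4a3, Col4a4 and Col4a5, which form 1 network, were found in 1 of 50 lineage+ cells, against 6 of 34 lineage- cells. Col4a5 and Col4a6 were both found in 6 of 50 lineage+ cells, against 1 of 34 lineage- cells. Cells holding both chains of a pair also had more genes detected in lineage+, for instance medians of 2801.5 genes in cells with Col4a1 and Col4a2 and 2306.5 in the rest, and the part of that depth in co-detection was not tested.

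**Figure D3:**
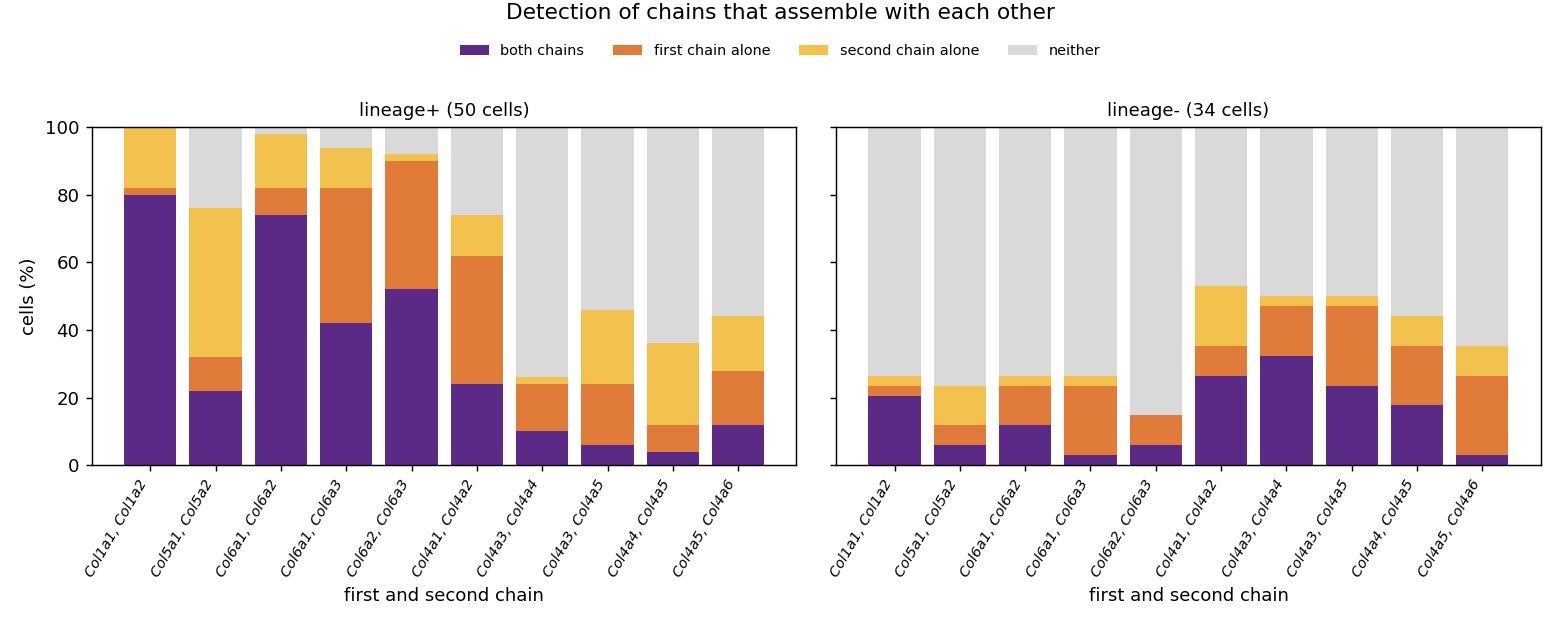
Share of cells (%) with both chains, the first alone, the second alone or neither, for 10 pairs that assemble with each other, in lineage+ cells (left panel, 50 cells) and lineage- cells (right panel, 34 cells). Both type I chains were present in 40 lineage+ cells and 7 lineage- cells, and both Col4a3 and Col4a4 in 5 lineage+ cells and 11 lineage- cells.

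Levels of most partner chains showed little correlation from cell to cell in lineage+, with type I and 1 type VI pair above the rest. Over 50 lineage+ cells, the 153 pairs among 18 chains detected in at least 20% of those cells had a median Pearson r of 0.078 on log2 of FPKM plus 1, and the 8 partner pairs among them a median of -0.00076. The chains most alike were Col3a1 and Col14a1 (r = 0.62), Col1a2 and Col14a1 (0.54), Col1a1 and Col3a1 (0.49), Col1a2 and Col3a1 (0.48), and the partners Col1a1 and Col1a2 (0.45). The partners Col6a2 and Col6a3 had 0.33, and the other 6 partner pairs lay between -0.11 and 0.11. Col4a3 and Col4a4, the second found in fewer cells than those pairs required, had an r of 0.46 over lineage+ cells and 0.70 over lineage- cells. Col1a1 and Col1a2 had 0.91 over lineage- cells, most of which held neither. These cells share chips and differ in depth, the values hold many zeros, and the correlations are given as descriptions.

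Clustering of the cells without the collagen and collagen folding genes gave 6 clusters, named from markers. In lineage+, 40 cells were fibroblast-like (20 in cluster 1, led by Epha1 and Klf7, and 20 in cluster 2, led by Lrrn4cl and Entpd2) and 8 were mesothelial-like, led by genes of the lung surface lining such as Upk3b and Msln. The other 2, numbers 21 and 28, fell in an immune-like cluster though 0 of 11 immune markers reached 1 FPKM in them, and are not described as a class. Of the 8 mesothelial-like cells, cell 51 held 17 of 24 fibroblast markers, cell 7 held 15, and cells 26 and 48 held 13 each. Cells 6, 24, 27 and 54 held 3 to 5. Fibroblast-like cells 8 and 19 of lineage+ held 7 and 9 of 10 mesothelial markers, and their own markers placed them as mesothelial-like. The lineage+ classes are thus not cleanly separate. In lineage-, 18 cells were epithelial-like, 12 immune-like, 3 fibroblast-like and 1 mesothelial-like. Of the 3, cell 25 had 3 of 24 fibroblast markers and less than 1 FPKM of Col1a1 and Col1a2, and its own markers placed it as endothelial-like. These names were rebuilt from the deposited values.

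**Figure D4:**
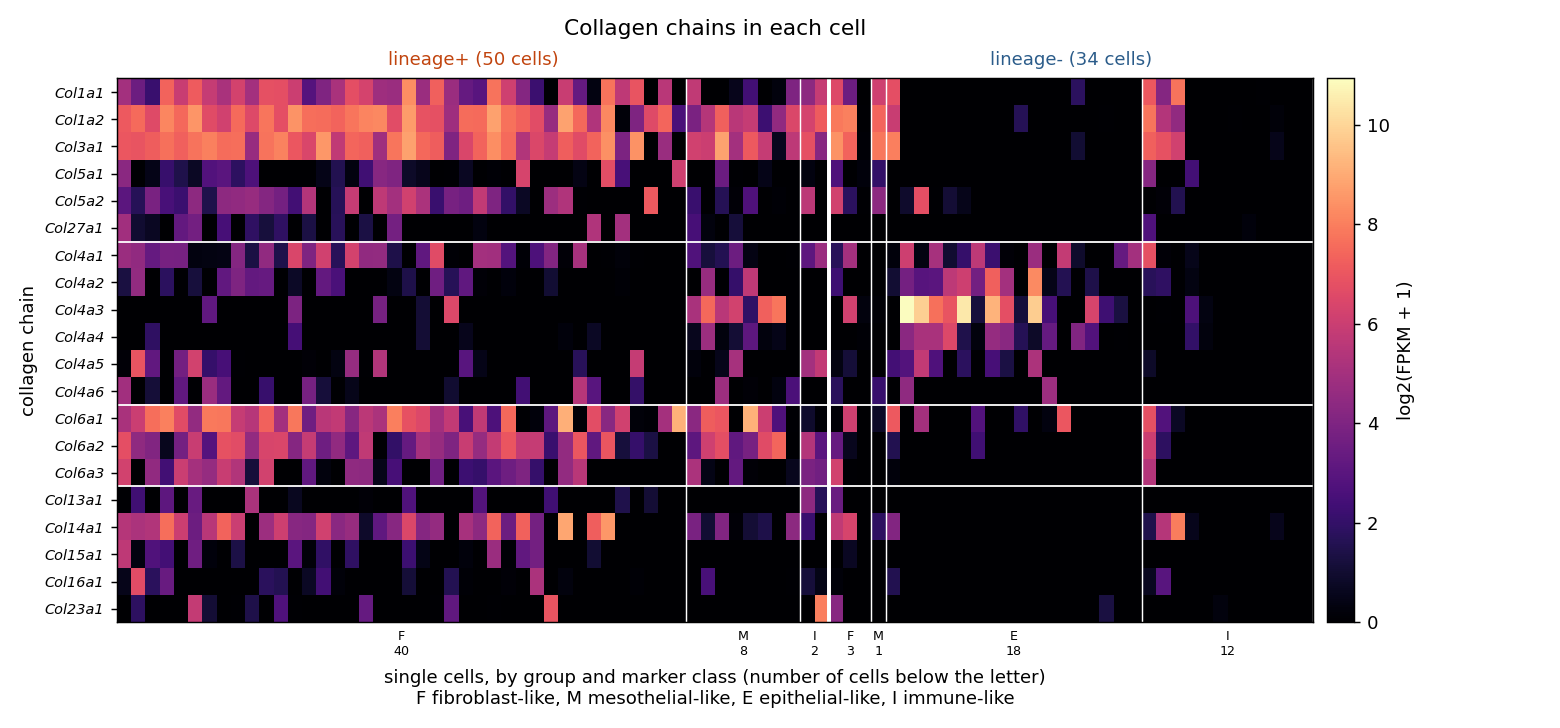
Level of the 20 collagen chains (rows, log2 of FPKM plus 1) in each of 50 lineage+ cells (left) and 34 lineage- cells (right), ordered by marker class and then by the number of chains detected. Type I and III rows and those of Col6a1 and Col6a2 are filled across most fibroblast-like lineage+ cells, and that of Col6a3 in 23 of 40. The Col4a3 row is filled in most mesothelial-like lineage+ and epithelial-like lineage- cells.

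Within lineage+, Col1a1 was found mainly in fibroblast-like cells and Col4a3 mainly in mesothelial-like cells, while Col1a2 was found in nearly all cells of both classes. Col1a1 was detected in 36 of 40 fibroblast-like cells (90%, 76.3 to 97.2%; median 34.6 FPKM) and in 3 of 8 mesothelial-like cells (37.5%, 8.52 to 75.5%; median 0.350 FPKM). Col1a2 was present in 39 of 40 fibroblast-like cells, with a median of 173 FPKM, and in 8 of 8 mesothelial-like cells, with a median of 44.1 FPKM. Col5a2 was present in 29 of 40 fibroblast-like and 3 of 8 mesothelial-like cells. Col6a1 was found in 35 of 40 fibroblast-like and 6 of 8 mesothelial-like cells, and Col6a2 in 36 of 40 fibroblast-like and 7 of 8 mesothelial-like cells. Col6a3 was found in 23 of 40 fibroblast-like cells (57.5%, 40.9 to 73.0%; median 3.45 FPKM) and in 2 of 8 mesothelial-like cells (25%, 3.19 to 65.1%; median 0.237 FPKM).

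Col4a3 had the opposite pattern, with 7 of 8 mesothelial-like lineage+ cells (87.5%, 47.3 to 99.7%; median 60.4 FPKM) and 5 of 40 fibroblast-like lineage+ cells (12.5%, 4.19 to 26.8%; median 0). Without the mesothelial-like cells, the log2 ratio of Col4a3 between the groups was -5.55. Col13a1, Col15a1 and Col23a1 were each detected in 0 of 8 mesothelial-like cells, which allows a share of up to 37.5%, against 9, 13 and 8 of 40 fibroblast-like cells. With 8 cells, some of them rich in fibroblast markers, these shares are loosely fixed.

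The fibroblast-like clusters of lineage+ cells were alike in Col1a1, Col1a2, Col3a1, Col6a1 and Col6a2, each present in 16 to 20 of 20 cells of both clusters. Col4a5 was found in 10 of 20 cells of cluster 1 and 1 of 20 of cluster 2, Col23a1 in 7 of cluster 1 and 1 of cluster 2, and Col15a1 in 4 of cluster 1 and 9 of cluster 2. Cluster 1 had a median of 2663 genes detected and cluster 2 of 2027, and the part of depth in these shares was not tested.

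In lineage-, the cells with type IV chains other than Col4a6 were mainly epithelial-like. Of these 18, 14 held Col4a3 (77.8%, 52.4 to 93.6%; median 42.0 FPKM), 12 held Col4a2, 11 held Col4a4 and 9 held Col4a1. Of 12 immune-like cells, 1 held Col4a3, 2 held Col4a2, 1 held Col4a4 and 1 held Col4a1. That Col4a1, in cell 10, was the highest of the lineage- group at 111 FPKM. Col4a5 was held by 8 of the 18 epithelial-like cells. Col4a6 was held by 2 of the 18, and also by fibroblast-like cell 4 and mesothelial-like cell 15. Over the 18 epithelial-like cells Col4a3 went with Ager, a marker of alveolar type 1 cells, the flat cells of the gas exchange surface (Pearson r 0.85 on the log2 scale, a description). Cell 31 had 23667 FPKM of Ager and 1955 of Col4a3, cell 28 had 9285 and 1380, and cell 34 had 14.8 and 0. In lineage+ cells Ager did not reach 1 FPKM, so the Col4a3 of their mesothelial-like cells came without it.

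**Figure D5:**
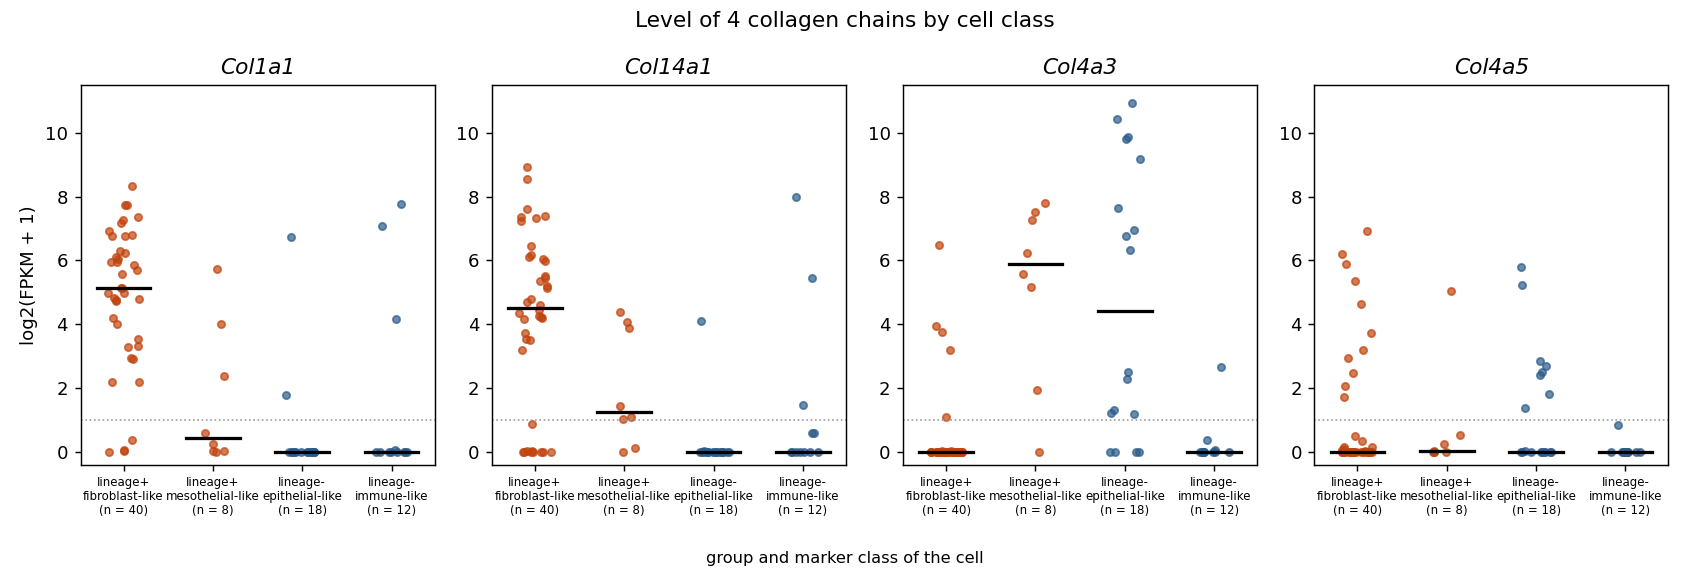
Level of Col1a1, Col14a1, Col4a3 and Col4a5 (log2 of FPKM plus 1) in single cells of 4 classes, lineage+ in orange on the left and lineage- in blue on the right of each panel; black lines are medians and the dotted line is 1 FPKM. Col1a1 and Col14a1 are high in most fibroblast-like cells, and Col4a3 in mesothelial-like (median 60.4 FPKM) and epithelial-like (median 42.0 FPKM) cells. Col14a1 was detected in 30 of 40 fibroblast-like and 6 of 8 mesothelial-like lineage+ cells, with medians of 22.0 and 1.41 FPKM.

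Nearly all type I and III collagen of the lineage- group lay in 7 cells, numbers 1, 4, 5, 10, 15, 20 and 27. They held 99.6% of the lineage- sum of Col1a1, 99.8% of that of Col1a2 and 99.9% of that of Col3a1, and 95.2% of that of Col6a2. Their part was smaller for other chains, with 65.8% of the lineage- sum of Col6a1 and 46.7% of that of Col5a2. Their Col1a1 ranged over 10.4 to 217 FPKM and their Col1a2 over 21.5 to 267 FPKM, inside the range of the lineage+ cells. Cells 4 and 20 were fibroblast-like and cell 15 mesothelial-like. Cells 5, 10 and 27 were immune-like and cell 1 epithelial-like, and these 4 also carried markers of another kind of cell: cell 10 had 17 of 24 fibroblast and 10 of 11 immune markers, and cell 1 had 13 of 24 fibroblast and 9 of 10 type 2 markers. Whether such wells held more than 1 cell was not tested. Without the 5 lineage- cells that carry both kinds of markers (these 4 and cell 19), the log2 ratios were 2.96 for Col1a1, 2.67 for Col1a2, 2.47 for Col3a1, 3.18 for Col14a1 and 4.85 for Col6a2. The rule for such cells was set after seeing them, and 4 of the 5 are among the 7 cells above. Higher ratios of type I and III chains without them were therefore built in. The rule did not look for mesothelial markers beside fibroblast markers.

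Genes that fold, modify, trim or cross-link collagen were taken from a list of 31, of which 30 had values and 21 passed the same 10% of cells. Of these 21, 11 stood 2-fold or more higher in lineage+ cells and 4 as far lower, or 10 to 12 and 3 to 5 on leaving out any 1 cell, where 29.7% and 23.4% of all 7588 genes were. The count of lower genes is thus not above that of all genes. As with the chains, some genes of this list and of the receptor list below passed the 10% in a single group, where the filter favours that group. Ppib, a folding enzyme, held the median of these ratios, with a mean of 208 ± 232 FPKM in lineage+ cells, against 90.2 ± 110 FPKM in lineage- cells (SD over cells). Pcolce and Pcolce2, which speed the trimming of procollagen, had log2 ratios of 1.81 and 1.36. Pcolce averaged 301 ± 394 FPKM in lineage+ cells, against 85.0 ± 204 FPKM in lineage- cells, and Pcolce2 averaged 269 ± 276 FPKM in lineage+ cells, against 104 ± 289 FPKM in lineage- cells (SD over cells). Loxl1, a cross-linking enzyme, was present in 46 of 50 lineage+ cells, against 7 of 34 lineage- cells (log2 ratio 1.61). Leprel2, now named P3h3, of the prolyl 3-hydroxylase family, had a log2 ratio of 1.86.

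The collagen chaperone Serpinh1 was present in 34 of 50 lineage+ cells, against 10 of 34 lineage- cells, with a log2 ratio of 0.93, or 1.29 without lineage- cell 8. Adamts2, which trims the other end of procollagen, had 0.42, or 1.33 without lineage- cell 1, which held 52.1% of the lineage- sum. P4hb, a subunit of prolyl 4-hydroxylase that serves other secreted proteins too, was present in 42 of 50 lineage+ cells, against 26 of 34 lineage- cells. Its log2 ratio was -0.73, and 0.26 without lineage- cell 17, which stood at 2845 FPKM. The lower 4, named after their values were seen, were Plod2 and Plod3, which hydroxylate lysines, Glt25d1, now named Colgalt1, which adds sugar to them, and Leprel1, now named P3h2, a prolyl 3-hydroxylase. Glt25d1 had a log2 ratio of -1.51, or -0.64 without lineage- cell 12, so that it is not past 2-fold without that cell, and Plod3 had -1.91, or -1.04 without lineage- cell 27. Plod2 reached 1 FPKM in 2 of 50 lineage+ cells, against 9 of 34 lineage- cells. Leprel1 was listed at 0 in every lineage+ cell and detected in 6 of 34 lineage- cells, up to 556 FPKM in cell 31, the cell with the most Col4a3.

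Of 12 collagen receptors and uptake genes, 11 had values and 5 were counted, 4 of them 2-fold or more higher in lineage+ cells and 0 as far lower, with a median log2 ratio of 1.53, where 29.7% of all 7588 genes were as far higher and 23.4% as far lower, with a median of 0.15. Ddr2, a receptor kinase for fibrillar collagens, was present in 33 of 50 lineage+ cells, against 5 of 34 lineage- cells (log2 ratio 1.44, or 2.69 without lineage- cell 4, which held 66.4% of the lineage- sum). Antxr1 and Antxr2, which bind collagens of the cell surface matrix, had log2 ratios of 2.68 and 1.53, the second 2.16 without lineage- cell 5. Itgb1, the beta subunit shared by the collagen-binding integrins, was found in 42 of 50 lineage+ cells, against 21 of 34 lineage- cells, and had 0.72.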

How the data were processed

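The data are 93 libraries of 1 lung cell each. Per the labels' protocols, the submitters looked at each well and dropped those that were empty or held doublets or debris, though 1 deposited lineage- library has debris in its name, and no doublet caller was run here. RSEM 1.2.20, Bowtie 1.1.1, mm9 and GRCm38 are named in the submitters' processing notes, with no role. The authors deposited 1 table per group, whose values are FPKM. The unit is inferred from the values, since no label or header names it, and the scaling between the tables by the authors is not stated in those sources. Coordinates are those of the deposited tables, and all 42 chains overlap their gene in GENCODE M21 (GRCm38).

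Of 23846 rows, 1830 without values and 731 of 249 repeated symbols were left out, which leaves 21285 genes. The 2 pairs of lineage+ libraries with a pairwise r of at least 0.996 (highest of the other pairs 0.596) were averaged and counted once. Read depth could not be recovered from the values, so the number of genes detected stands in for it. A chain was detected at 1 FPKM, cells needed 1000 genes, and ratios are of group means plus 1 FPKM. A chain was named with its values if detected in 10% or more of a group's cells or if a partner of such a chain, and genes of the folding and receptor lists if detected in at least 50%. The members, lists, markers and rules were chosen with earlier results of these data known. Cells of 1 group are not replicates, so no test was made.

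Cells were clustered with igraph 0.11.9 and scanpy 1.11.5 (10 neighbours, 15 components, 2000 variable genes, Leiden resolution 1) without collagen and folding genes. A cell was said to carry markers of 2 kinds with at least 25% of fibroblast markers and at least 50% of immune or type 2 markers at 1 FPKM, a rule set after seeing the cells. Other tools were matplotlib 3.10.9, scipy 1.17.1, pandas 2.3.3, numpy 2.4.6 and Python 3.11.15. ERCC spike-ins were not analysed here.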

Additional observations from a re-analysis of the deposited data

How the results depend on the processing

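The direction of every fibrillar, type VI and other chain named with a ratio was the same under all 15 alternatives. Of these, 2 (without cells carrying 2 kinds of markers, without the mesothelial-like lineage+ cells) were chosen after seeing the data. The first takes out lineage- cells rich in type I and III chains, so it was bound to raise the ratios of those chains. Alternatives that changed only the detection rule left the ratios as they were, and another amount of FPKM added to both means cannot change a direction. Those alternatives therefore say nothing on direction. The number of chains at least 2-fold higher was 15 and fell to 6 with 10 FPKM added, 9 in cells with at least 2000 genes and 8 with the mean of log2 values, where 10.4%, 29.7% and 14.3% of all genes were as far higher, against 29.7% in the settings reported. The number at least 2-fold lower was 3, and was 5 of 42 with no filter on detection and 0 of 20 in cells with at least 2000 genes. As far lower were 13.1% and 24.1% of all genes in those 2 settings, against 23.4% in the settings reported. The median log2 ratio of 1.72 was 0.59, 0.99 and 0.78 under the first 3 of these settings and 0.064 with no filter, which brings in chains listed at 0. The median number of chains per lineage+ cell, 10, was 13.5 with detection at any value above 0 and 7 with detection at 10 FPKM. In cells with at least 2000 genes Col4a2 reversed to 0.89, Col4a1, within 2-fold throughout, changed sign to -0.07, and type IV as a group had a median of -0.97 in all kept cells and 0.41 in those. Besides fewer cells, that setting had another mix, with 3 of 12 lineage- cells epithelial-like, against 18 of 34 kept. The causes of these changes were not tested. Leaving out 1 cell at a time gave 13 to 16 chains higher, 3 lower and a median of 1.49 to 1.81. Giving each cell a class from its own markers moved 1 share by class past its interval and left the other 79 inside theirs. No paired analysis was possible because cells share only a running number and no test was made. Depth limits the rare chains most: at 34 cells a count of 0 allows up to 8.82%.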
